A study of Mus musculus with 8 samples.

Results

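Proteasome subunits were followed through polyA RNA sequencing of 2 mouse myoblast cultures treated with a Septin9 siRNA. Members were the entries of the count table whose symbol was Psma, Psmb, Psmc or Psmd followed by digits, with at least 1 CPM (a read count scaled to the total of its library) in all 4 control samples. Of 42391 gene entries 39 had such a symbol, and 35 were members. Psmb8, Psmb9, Psmb11 and Psma8 were left out for low counts. C2C12, a mouse myoblast line, had been placed in differentiation medium for 12 h and was collected 60 h after transfection. Primary myoblasts, grown out of hindlimb muscle of young mice and pre-plated to remove fibroblasts, were collected while proliferating on Matrigel, 48 h after transfection. All cells were labelled wild type (WT) and were transfected with a non-targeting siRNA (control) or with Septin9 siRNA, with 2 replicates per group from separate experiments. Whether each replicate of primary myoblasts came from its own mouse is not stated, so p-values do not measure the spread between mice. For the siRNA they rest on how far the changes in the 2 pairs differed. Between the control cultures they rest on the spread between replicates. In both cases edgeR's quasi-likelihood test also draws on the spread of other genes.

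Septin9, the target of the siRNA, stood at 409 and 435 CPM in control C2C12 cells and at 147 and 185 CPM in Septin9-deficient C2C12 cells. In primary myoblasts its level was 376 and 473 CPM in the controls and 208 and 159 CPM after Septin9 siRNA. The groups did not overlap in either cell type. Log2 fold changes were -1.36 ± 0.08 (adjusted p = 5.1e-09) and -1.21 ± 0.15 (adjusted p = 0.00013) in edgeR's quasi-likelihood test, with 2 pairs each. Here and below, ± after a log2 fold change or difference is the SE from that test. These SEs and the intervals draw on the spread of other genes and are not the spread between pairs. The log2 ratios of Septin9 in pairs 1 and 2 were -1.50 and -1.22 in C2C12 cells. In primary myoblasts they were -0.87 and -1.54. Between 20898611 and 27223414 reads were counted per sample. All 6 myoblast markers examined were found in every sample. Their summed level was 726 to 1292 CPM in C2C12 cells and 2809 to 5348 CPM in primary myoblasts. Myog, the myogenic factor of early differentiation, stood at 5.19 and 37.5 CPM in control C2C12 cells and at 1019.9 and 401 CPM in control primary myoblasts, although the latter were labelled as proliferating. The 6 fibroblast markers summed to 2371 to 3054 CPM in C2C12 cells, where Thy1 was at 0, and in primary myoblasts to 353 and 322 CPM in replicate 1 and to 842 and 1009 CPM in replicate 2. Pdgfra, one of them, stood at 1.03 and 0.90 CPM in replicate 1 and at 31.7 and 32.1 CPM in replicate 2. The 4 smooth muscle or pericyte markers summed to 246 to 334 CPM in C2C12 cells. In primary myoblasts they summed to 33.4 and 31.7 CPM in replicate 1 and to 136 and 156 CPM in replicate 2. The 7 haematopoietic markers summed to at most 5.20 CPM, and Ptprc, which marks all white blood cells, was at 0 in 7 samples and at 0.04 CPM in the other.

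The proteasome degrades proteins tagged with ubiquitin. Its core particle is a barrel of alpha rings, which gate the entrance, and beta rings, which hold the catalytic sites: Psmb6, Psmb7 and Psmb5 carry the caspase-like, trypsin-like and chymotrypsin-like activities. In cells exposed to interferon these are exchanged for Psmb9, Psmb10 and Psmb8, which form the immunoproteasome and favour peptides for antigen presentation. The regulatory particle has a base, whose Psmc ATPases unfold the substrate, and a lid, which removes ubiquitin. Muscle relies on the proteasome both for turnover of regulators during differentiation and for loss of myofibrillar protein in atrophy. The members comprised 7 alpha subunits, 7 constitutive beta subunits, the immunoproteasome subunit Psmb10, 6 base ATPases, 3 further base subunits (Psmd1, Psmd2 and Psmd4), 8 lid subunits and 3 assembly chaperones that bear Psmd symbols (Psmd5, Psmd9 and Psmd10). They lie on 15 chromosomes, with 6 of them on chromosome 11. Psmb6 and Psmd10 are each listed a second time under a copy name with counts that differ by at most 2 reads, so reads of these genes may be shared between entries and their values are uncertain.

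Together the members took 0.423% to 0.525% of all counts in C2C12 cells and 0.579% to 0.705% in primary myoblasts. Levels of different genes were compared as CPM per kilobase of exon. In control primary myoblasts the highest levels per kilobase belonged to beta subunits of the core: Psmb6 at 219 ± 25.1, Psmb3 at 218 ± 14.1 and Psmb7 at 202 ± 16.8 (mean ± SD, n = 2). These 3 did not differ beyond their spread. Psmb5 followed at 182 CPM per kilobase and Psmd2, a scaffold of the base, at 178. In control C2C12 cells Psmb7 and Psmc3, both at 154 CPM per kilobase, led the order, with Psmb6 at 143. Psmb5 ranked 4 of 35 in primary myoblasts and 16 in C2C12 cells, and the lid subunit Psmd8 ranked 7 and 26. The lowest levels per kilobase in both cell types belonged to Psmb10, with 7.96 and 9.96 in C2C12 and primary myoblast controls, and to the chaperones Psmd9 (9.22 and 12.6), Psmd5 (14.8 and 21.8) and Psmd10 (21.2 and 23.6). Without Psmb10, the median level was 71.7 CPM per kilobase in control C2C12 cells and 119 in control primary myoblasts. The 31 subunits other than Psmb10 and the chaperones spanned a 4.55-fold range of mRNA level in the former, from Psmd11 to Psmb7, and a 4.09-fold range in the latter, from Psmd11 to Psmb6. With the chaperones included the ranges were 16.7-fold and 17.5-fold. The order depended on the exon length used for genes with several transcripts. By the median transcript in place of the union of exons, Psmd8 came first in control primary myoblasts at 231 CPM per kilobase, ahead of Psmb6, and Psmc3 came first in control C2C12 cells at 192, ahead of Psmb7 at 154. Psmb1 ranked 25 of 35 by the union of its exons and 11 by its median transcript in control C2C12 cells.

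**Figure D1:**
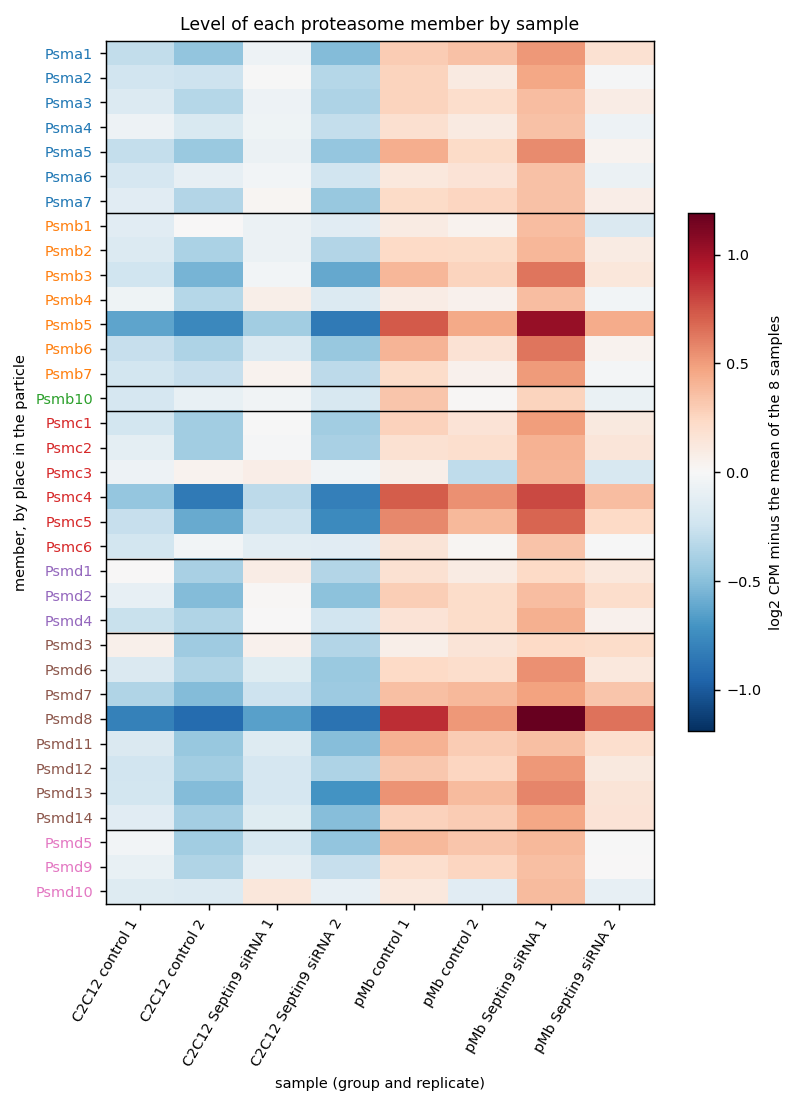
Level of the 35 members in each of the 8 samples, as log2 CPM minus the mean of the member over all samples (colour), with members in rows by place in the particle and samples in columns. C2C12 columns are mostly blue and primary myoblast columns mostly red, with the widest contrast in Psmd8, Psmb5 and Psmc4, and Septin9 siRNA replicate 1 of primary myoblasts has the highest level of every member but Psmb10 and Psmd11, which are highest in control replicate 1 of primary myoblasts.

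The first question was whether depletion of Septin9 changed the proteasome subunits of C2C12 cells. None of the 35 members passed an adjusted p of 0.05 in either direction, while 6.75% of the 15814 genes tested did. At an unadjusted p under 0.05 there were 3 members, against 18.7% of all genes. DESeq2 called 0 members, where it called only 2.2% of all genes. The log2 fold changes lay between -0.11 and 0.19 with a median of 0.03, against a median of -0.00079 over all genes. The 95% interval of every member stayed within a 1.5-fold change in both directions, as did that of 73.4% of all genes, and the outermost bounds of the members were -0.26 and 0.33 on the log2 scale. Of the 35 members 26 had a positive log2 fold change, against 49.8% of all genes.

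Psmd4, a ubiquitin receptor of the base, had the highest log2 fold change. It stood at 115 and 108 CPM in controls and at 138 and 118 CPM after Septin9 siRNA. The siRNA samples were both above the controls, and the log2 fold change was 0.19 ± 0.07 with an adjusted p of 0.098 in edgeR. Scaled by library size alone, it passed the threshold at 0.22 with an adjusted p of 0.037. The next values belonged to the chaperone Psmd10 (0.17 ± 0.08, adjusted p = 0.26), Psmb4 (0.14 ± 0.07, adjusted p = 0.25), Psmb7 (0.11 ± 0.07, adjusted p = 0.47) and the ATPase Psmc1 (0.10 ± 0.07, adjusted p = 0.48). At the other end stood the chaperone Psmd5, with 73.5 and 56.4 CPM in controls and 65.7 and 54.3 CPM after Septin9 siRNA. These groups overlapped, and the log2 fold change was -0.11 ± 0.07 (adjusted p = 0.43 in edgeR). It was followed by Psmd13, Psmc5, Psmd14 and Psma4, between -0.09 and -0.05.

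The catalytic subunits lay close to 0 as well. Psmb5 stood at 70.4 and 63.6 CPM in control and at 81.7 and 60.6 CPM in Septin9-deficient C2C12 cells. Psmb6 stood at 118 and 110.4 CPM in controls and at 128 and 105 CPM after siRNA, and Psmb7 at 182 and 176 and then at 218 and 171 CPM. In each of these 3 genes the siRNA samples lay on both sides of the controls, with replicate 1 above and replicate 2 below. Their log2 fold changes were 0.07, 0.01 and 0.11, with adjusted p-values of 0.72, 0.97 and 0.47 in edgeR. By replicate pair, the median log2 ratio of the members was 0.09 in pair 1, where 27 of 35 were positive, and -0.03 in pair 2, where 14 were. Over all genes these medians were -0.0036 and 0.0014. In 11 members both pairs were higher after Septin9 siRNA, in 5 both were lower, and in 19 the pairs went opposite ways. How often the pairs went opposite ways over all genes was not counted.

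The same question was asked in primary myoblasts, where none of the 35 members passed the threshold either, while 4.99% of the 17117 genes tested did. No member had an unadjusted p under 0.05, against 16.7% of all genes. DESeq2 called 0 members, where it called only 1.78% of all genes. Log2 fold changes ran from -0.16 to 0.23 with a median of 0.03, against 0.01 over all genes, and 23 of 35 were positive, against 51.7% of all genes. Each member's 95% interval lay within a 1.5-fold change, as for 60.0% of all genes, with outermost bounds of -0.39 and 0.49. The extremes were Psmd5 again at the low end and Psmc3, an ATPase of the base, at the high end. Psmc3 stood at 331 and 256 CPM in controls and at 418 and 277 CPM in Septin9-deficient cells, with overlapping groups and a log2 fold change of 0.23 ± 0.12 (adjusted p = 0.37 in edgeR). Psmd8 had 397 and 309 CPM in controls and 491 and 337 CPM after siRNA, also overlapping, with a log2 fold change of 0.22 ± 0.12 (adjusted p = 0.41 in edgeR). Psmd5 had 97.9 and 94.0 CPM in controls and 98.0 and 75.0 CPM after siRNA, with -0.16 ± 0.11 (adjusted p = 0.53 in edgeR). Psmb5, Psmd10 and Psmd3 followed Psmd8 at 0.15, 0.15 and 0.12, and Psmd13, Psmb10, Psmd11 and Psmc4 followed Psmd5 between -0.09 and -0.05.

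For the catalytic subunits of primary myoblasts, Psmb5 stood at 179 and 148 CPM in controls and at 223 and 147 CPM after Septin9 siRNA. Psmb6 stood at 189 and 161 CPM and then at 221 and 147 CPM, and Psmb7 at 248 and 220.0 CPM and then at 302 and 209 CPM. Again the siRNA samples lay on both sides of the controls, with replicate 1 highest. Adjusted p-values were 0.57, 0.89 and 0.74 in edgeR. The 2 pairs went apart: the median log2 ratio was 0.17 in pair 1, where 32 of 35 members were positive, and -0.09 in pair 2, where 8 were. Over all genes the medians were -0.00018 and 0.024, and signs by pair were not counted. Both pairs were higher in 8 members, both lower in 3, and opposite in 24. The log2 fold changes therefore depended on the pair. With pair 2 left out, those of Psmc3, Psmd6, Psmb5 and Psmd8 were 0.34, 0.31, 0.31 and 0.30. With pair 1 left out, that of Psmd5 was -0.32. Such a fit leaves 1 primary myoblast sample per siRNA. Its spread comes from the C2C12 samples alone, so no calls are given.

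**Figure D2:**
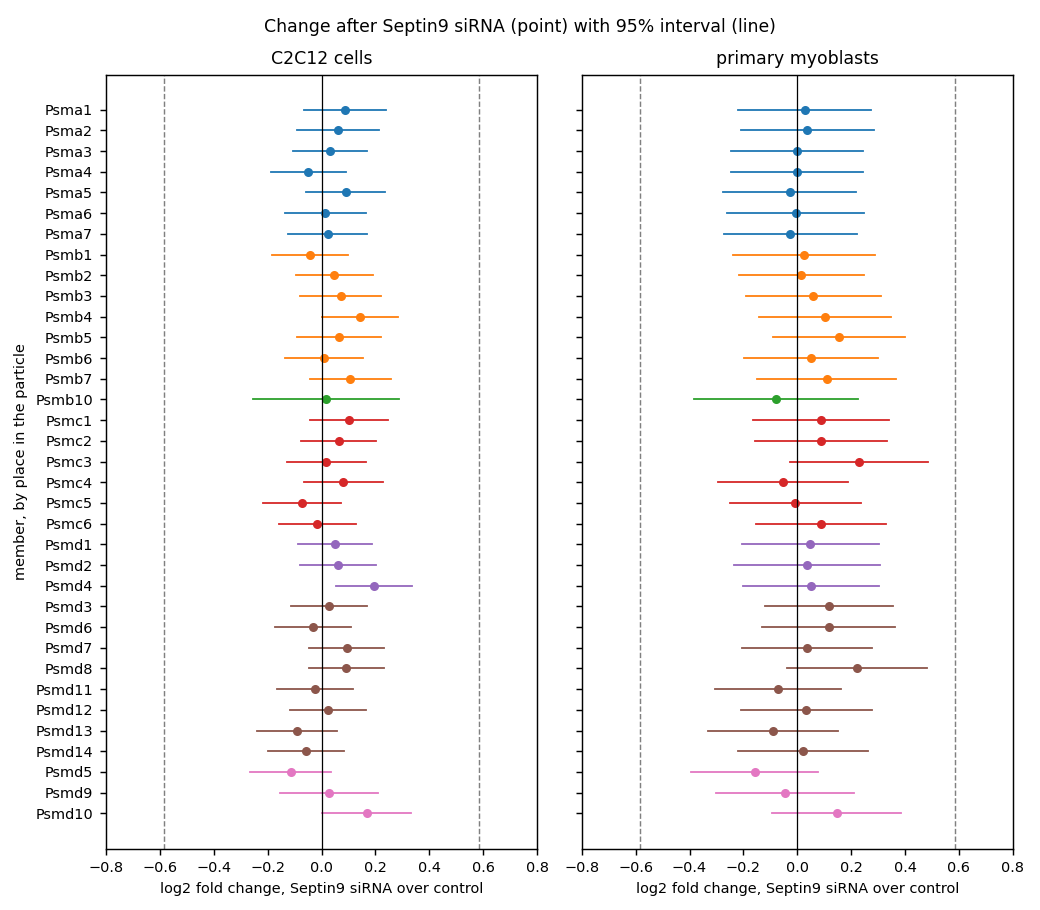
Log2 fold change of each member after Septin9 siRNA (points) with its 95% interval (lines), in C2C12 cells (left) and primary myoblasts (right), with n = 2 pairs each; dashed lines mark a 1.5-fold change. All intervals lie between the dashed lines, from -0.26 to 0.33 in C2C12 cells and from -0.39 to 0.49 in primary myoblasts.

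The effects in the 2 cell types were compared by an interaction term over all 8 samples. No member passed the threshold, and the share of all 17918 genes that did was 0%, so the absence of calls says nothing about the members. At an unadjusted p under 0.05 there were 0 members in edgeR, against 8.20% of all genes, and DESeq2 called 0 members and 21 genes in all. Differences of the log2 fold changes, C2C12 minus primary myoblasts, ran from -0.20 in Psmc3 to 0.15 in Psmd4. Their 95% intervals stayed within a 1.5-fold difference in all 35 members and in 48.6% of all genes, with outermost bounds of -0.51 and 0.50.

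The replicates of each cell type were compared in the same fits. Here and below, a replicate number stands for a single experiment. Calls and p-values between replicates therefore describe these experiments and no others. In C2C12 cells 29 of 35 members were lower in replicate 2 than in replicate 1 and passed the threshold, where 18.3% of all genes were lower and did so. None was higher. The median log2 difference was -0.28, from -0.49 in Psmd2 to 0.06 in Psmc6, and no member was lower by 1.5-fold together with the threshold, as 6.10% of all genes were. Of the 35 members 33 had a negative difference, against 49.3% of all genes. Psmd2 stood at 414 and 309.8 CPM in the control replicates 1 and 2 and at 447 and 315 CPM in the siRNA replicates, so that both samples of replicate 1 were above both of replicate 2. Its log2 difference was -0.49 ± 0.07 (adjusted p = 1.33e-05 in edgeR). The 6 members that did not pass the threshold were Psma6, Psmb1, Psmb10, Psmc3, Psmc6 and Psmd10.

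In primary myoblasts 34 of 35 members were lower in replicate 2, against 48.9% of all genes, with a median of -0.21. Of these 6 passed the threshold, where 11.9% of all genes were lower and did so. These 6 were Psmc3 (-0.46 ± 0.12), Psmd8 (-0.43 ± 0.12), Psmb5 (-0.42 ± 0.12), Psmb6 (-0.39 ± 0.12), Psma5 (-0.34 ± 0.12) and Psmd10 (-0.34 ± 0.11), with adjusted p-values of 0.0091 to 0.041 in edgeR, and none was 1.5-fold lower, against 7.81% of all genes. The split by siRNA was uneven: the median log2 ratio of replicate 2 over replicate 1 was -0.08 in controls and -0.35 after Septin9 siRNA. In C2C12 cells these medians were -0.23 and -0.31. The fibroblast markers and the smooth muscle or pericyte markers given above also separated the replicates of primary myoblasts. Myog was lower in replicate 2 of primary myoblasts and higher in replicate 2 of C2C12 cells. The part of these differences in the members' levels was not tested.

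**Figure D3:**
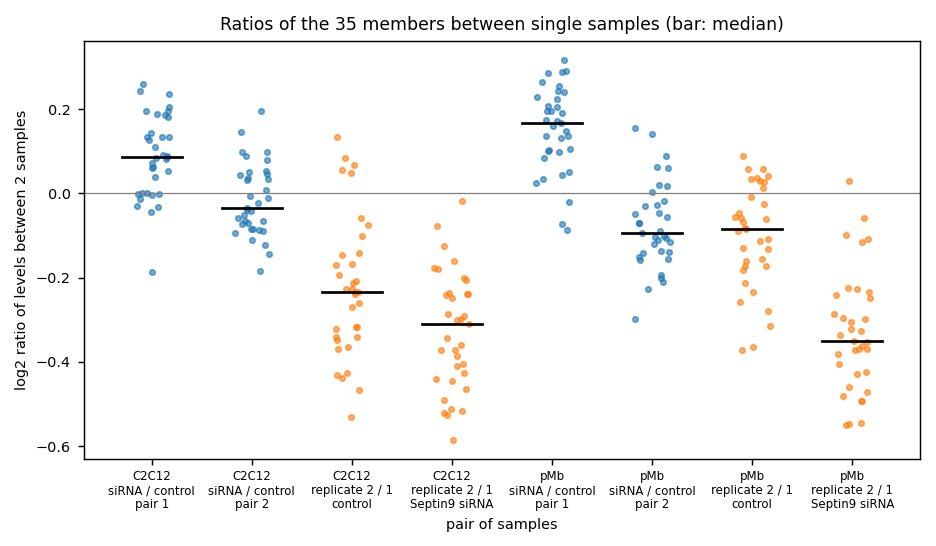
Log2 ratio of each of the 35 members between single samples (points) with the median (bar): siRNA over control within each replicate pair (blue) and replicate 2 over replicate 1 within each siRNA (orange), for C2C12 cells and primary myoblasts (pMb). Replicate medians run from -0.35 to -0.08 and siRNA medians from -0.09 to 0.17.

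The control cultures of the 2 cell types were then compared. Levels were lower in C2C12 cells for 34 of 35 members, against 50.3% of all genes, and 15 members were lower past the threshold while none was higher, where 18.3% of the 17103 genes tested were lower and passed. The median log2 difference, C2C12 minus primary myoblasts, was -0.50, or a 1.42-fold lower level, against -0.0066 over all genes. At least 1.5-fold was reached by 12 of the 15, where 17.5% of all genes were lower by both criteria. In 34 members both C2C12 controls lay below both primary myoblast controls, which held for 37.6% of all genes, and in 26 members all 4 C2C12 samples lay below all 4 primary myoblast samples, which held for 29.6% of all genes. Cell line, time after transfection, medium and differentiation differ together between these cultures and cannot be told apart. In RNA from whole cultures, fewer cells of a type and less RNA per cell cannot be told apart either. The number of calls, in all genes as in the members, rested on single samples. Without control C2C12 replicate 1 it was 1 of 35 members, against 8.58% of all genes called in either direction, and without replicate 2 it was 0, against 2.86%. Without primary myoblast replicate 1 or 2 it was 3 or 7 members, against 21.5% and 26.8% of all genes, where the fit with all control samples called 34.5%. In each case 34 or 35 members had a negative difference.

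All 8 lid subunits had a negative difference, against 50.3% of all genes. Of these 6 passed the threshold, where 18.3% of all genes were lower and passed. Psmd8 differed most of all members. It stood at 124 and 114 CPM in control C2C12 cells and at 397 and 309 CPM in control primary myoblasts. The groups were far apart, with a 2.99-fold lower level in C2C12 cells (log2 difference -1.58 ± 0.19, adjusted p = 0.0075 in edgeR). Psmd13, with 107 and 87.5 CPM against 181 and 163 CPM, differed by -0.83 ± 0.17, and Psmd7, a partner of the lid deubiquitinase, with 118 and 105 CPM against 193 and 197 CPM, by -0.82 ± 0.14. Psmd11, Psmd12 and Psmd14, the deubiquitinase itself, differed by -0.67, -0.61 and -0.56, with adjusted p-values of 0.033, 0.032 and 0.046 in edgeR. Psmd6 and Psmd3 did not pass, at -0.49 and -0.28.

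Among the base ATPases, Psmc4 stood at 81.6 and 62.7 CPM in C2C12 controls and at 185 and 164 CPM in primary myoblast controls. Its level was 2.43-fold lower in C2C12 cells (-1.28 ± 0.19, adjusted p = 0.011 in edgeR). Psmc5 differed by -0.92 ± 0.18, with 106 and 85.0 CPM against 190.5 and 168 CPM, and Psmc1 differed by -0.54 ± 0.15. The ATPase Psmc3 behaved otherwise. It was the only member with a positive difference (0.09 ± 0.18, adjusted p = 0.72 in edgeR), with 303 and 326 CPM in C2C12 cells and 331 and 256 CPM in primary myoblasts. Psmc2 and Psmc6 did not pass the threshold, at -0.46 and -0.22. Of the other base subunits Psmd4 passed at -0.51 ± 0.13, and Psmd1 and Psmd2 did not, at -0.32 and -0.55. None of the 3 chaperones passed, with differences of -0.57 in Psmd5, -0.46 in Psmd9 and -0.17 in Psmd10. Of all genes 18.3% were lower in C2C12 cells and passed.

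In the core particle all 14 constitutive subunits had a negative difference, against 50.3% of all genes. Of these 5 passed the threshold, where 18.3% of all genes were lower and passed. Psmb5, the chymotrypsin-like subunit, stood at 70.4 and 63.6 CPM against 179 and 148 CPM. It was 2.46-fold lower in C2C12 cells, at -1.30 ± 0.17 (adjusted p = 0.0087 in edgeR). The caspase-like subunit Psmb6, with 118 and 110.4 CPM against 189 and 161 CPM, differed by -0.62 ± 0.15 (adjusted p = 0.035), and the trypsin-like Psmb7, with 182 and 176 CPM against 248 and 220.0 CPM, by -0.39 ± 0.14 (adjusted p = 0.091 in edgeR). Psmb3 differed by -0.73, Psma1 by -0.71 and Psma5 by -0.70, and all of these passed. The smallest differences in the core belonged to Psmb1 (-0.15), Psmb4 (-0.26) and Psma4 (-0.28). Log2 differences between the cultures thus ranged from 0.09 to -1.58 among subunits and chaperones of one particle.

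**Figure D4:**
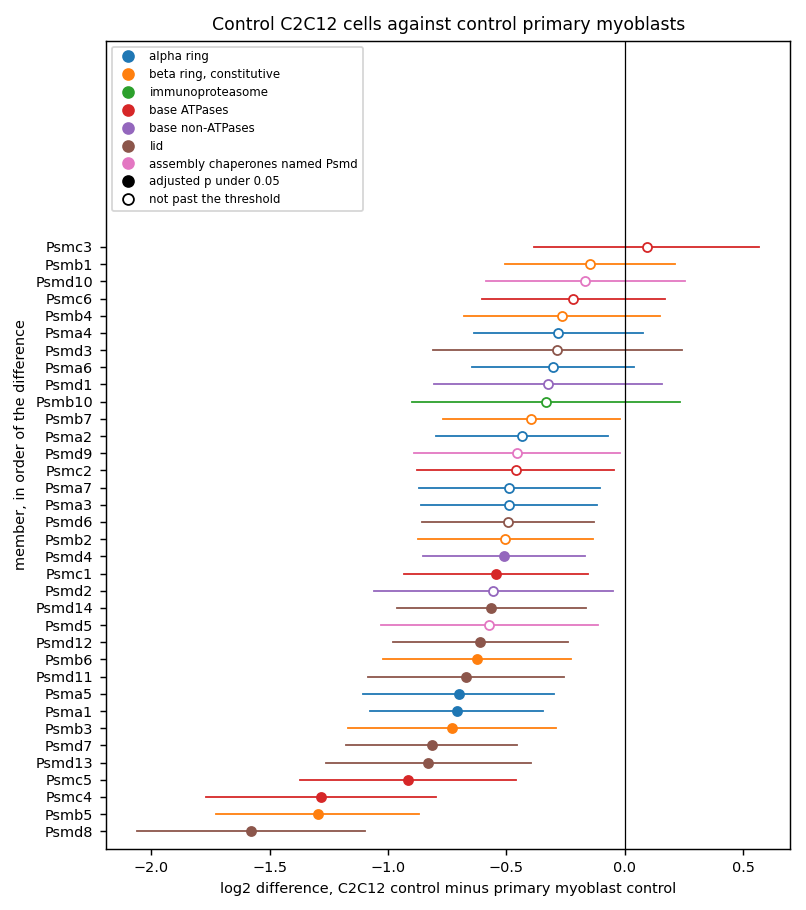
Log2 difference of each member between control C2C12 cells and control primary myoblasts (points, n = 2 samples each) with its 95% interval (lines), in order of the difference, coloured by place in the particle; filled points have an adjusted p under 0.05. All members but Psmc3 lie below 0, and Psmd8, Psmb5 and Psmc4 stand apart between -1.58 and -1.28.

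Promoters of the members that differed most, and of Psmb6 as a catalytic partner of Psmb5, are shown because proteasome genes can be induced together by Nrf1 (Nfe2l1), which binds antioxidant response elements (ARE). The sequences are RefSeq promoters on GRCm38.p6, from 250 bases before to 50 bases after the start site, written on the gene's strand, with matches to TGACNNNGC in capitals. They lie at chr14:54617946-54618245 (minus strand) for Psmb5, chr11:70525107-70525406 (plus strand) for Psmb6, chr7:29180624-29180923 (minus strand) for Psmd8 and chr7:28050043-28050342 (minus strand) for Psmc4.
Psmb5: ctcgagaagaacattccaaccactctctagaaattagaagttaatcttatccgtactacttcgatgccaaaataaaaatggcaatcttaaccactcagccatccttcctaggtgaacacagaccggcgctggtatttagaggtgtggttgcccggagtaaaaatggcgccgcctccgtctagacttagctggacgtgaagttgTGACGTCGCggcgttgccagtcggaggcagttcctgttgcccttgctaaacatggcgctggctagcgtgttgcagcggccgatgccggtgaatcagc
Psmb6: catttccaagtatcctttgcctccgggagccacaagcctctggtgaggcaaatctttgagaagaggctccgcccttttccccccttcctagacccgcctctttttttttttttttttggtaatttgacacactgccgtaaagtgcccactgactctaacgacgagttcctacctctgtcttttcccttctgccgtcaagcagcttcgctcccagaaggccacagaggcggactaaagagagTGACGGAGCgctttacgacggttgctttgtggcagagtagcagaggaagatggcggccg
Psmd8: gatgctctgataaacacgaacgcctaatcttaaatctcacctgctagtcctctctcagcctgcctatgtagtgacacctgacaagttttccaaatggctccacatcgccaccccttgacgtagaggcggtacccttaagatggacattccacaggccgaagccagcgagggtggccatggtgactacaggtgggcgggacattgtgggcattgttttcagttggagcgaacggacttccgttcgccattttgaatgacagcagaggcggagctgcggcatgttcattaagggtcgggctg
Psmc4: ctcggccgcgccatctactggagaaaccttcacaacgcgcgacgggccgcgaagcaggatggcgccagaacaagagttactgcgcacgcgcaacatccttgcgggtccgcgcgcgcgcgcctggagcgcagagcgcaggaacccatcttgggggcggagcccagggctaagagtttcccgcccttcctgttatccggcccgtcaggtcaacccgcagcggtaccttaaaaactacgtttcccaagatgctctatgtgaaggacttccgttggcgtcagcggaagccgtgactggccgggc
The match begins 47 bases before the start site in Psmb5 and 9 bases before it in Psmb6. Psmd8 and Psmc4 have none in this window, searched on both strands. A promoter was given for 29 members, and 5 of them had a match, the others being Psmc6, Psmd12 and Psmd9. As promoters this was 16.1% of 31, against 12.4% of all 32851 promoters. The CCAAT box, bound by NF-Y, was present in 35.5% of the members' promoters and in 37.4% of all. A core of the interferon-stimulated response element (ISRE), likewise searched on both strands, was present in 9.68% of the members' promoters, those of Psmb3, Psmd4 and Psmd9, and in 3.44% of all. The 5 members with an ARE match differed between the controls by a median of -0.61 (from -1.30 to -0.22), and the 24 members with a promoter but without a match by a median of -0.53 (from -1.58 to -0.17).

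The immunoproteasome was examined by its 3 catalytic subunits. Psmb10, the only one that was a member, stood at 10.0 and 10.9 CPM in C2C12 controls, 11.2 and 10.1 CPM after Septin9 siRNA, 14.5 and 11.6 CPM in primary myoblast controls and 13.8 and 10.9 CPM after Septin9 siRNA. The siRNA groups overlapped with the controls in both cell types, with log2 fold changes of 0.02 ± 0.13 and -0.08 ± 0.14 (adjusted p = 0.97 and 0.86 in edgeR). The difference between control cultures was -0.33 ± 0.22 (adjusted p = 0.29 in edgeR). Per kilobase of exon, Psmb10 reached 4.06% to 5.47% of the level of its constitutive counterpart Psmb7 in the 8 samples.

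Psmb8 was counted 6 to 23 times per sample. In control C2C12 cells this was 0.36 and 0.26 CPM, with exact 95% Poisson intervals of 0.16 to 0.72 and 0.10 to 0.53 that cover counting error only, and after Septin9 siRNA it was 0.56 and 0.63 CPM. The log2 fold change of 0.94 ± 0.52 did not pass (adjusted p = 0.36 in edgeR). In primary myoblasts Psmb8 stood at 0.26 and 0.31 CPM in replicate 1 and at 0.82 and 1.10 CPM in replicate 2, whichever siRNA was given, and replicate 2 was higher by 1.75 ± 0.48 on the log2 scale (adjusted p = 0.012 in edgeR). Psmb9 was counted 2 to 7 times, too few for the test. Relative to Psmb5 and Psmb6 per kilobase, Psmb8 reached 0.078% to 0.571% and Psmb9 0.036% to 0.165%. Psmb8 and Psmb9 are each listed under 3 further copy names, some with equal and some with other counts, so their levels are uncertain.

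**Figure D5:**
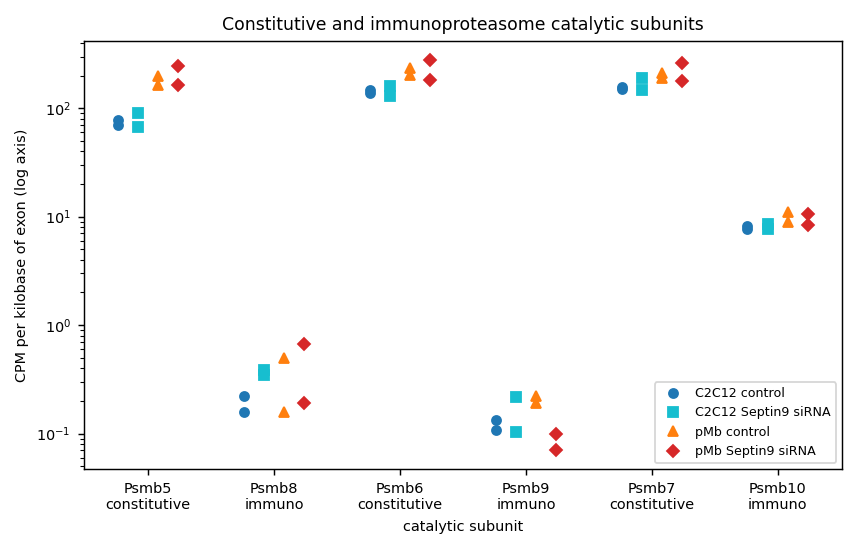
CPM per kilobase of exon (log axis) of the constitutive catalytic subunits and their immunoproteasome counterparts in each sample (points), by cell type and siRNA. Psmb10 lies at 4.06% to 5.47% of Psmb7, and Psmb8 and Psmb9 lie below 0.6% of Psmb5 and Psmb6 in all 8 samples.

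Genes that surround the proteasome were counted for comparison. Of 18 further subunits, chaperones and associated factors, 0 passed the threshold after Septin9 siRNA in either cell type. The share of all genes that passed was 6.75% in C2C12 cells and 4.99% in primary myoblasts. Between controls 4 of the 18 were lower in C2C12 cells past the threshold, where 18.3% of all genes were: the shuttle factor Ubqln4 (-0.90 ± 0.15), the deubiquitinase Usp14 (-0.82 ± 0.17), Psmg3 and the ubiquitin receptor Adrm1. Pomp, which assembles the core, stood at 101 and 94.5 CPM against 130.4 and 114 CPM and did not pass (-0.34 ± 0.14, adjusted p = 0.13 in edgeR).

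Alternative activators of the core went both ways between the controls. Psme2, an interferon-inducible activator subunit, was higher in C2C12 cells (0.90 ± 0.16, adjusted p = 0.017 in edgeR), with 64.6 and 77.5 CPM against 39.5 and 36.2 CPM. Its partner Psme1 did not pass at 0.63 ± 0.19 (adjusted p = 0.060). Psme4 was lower (-0.67 ± 0.15, adjusted p = 0.031). Between the controls 18.3% of all genes were lower and 16.2% higher past the threshold. None of the 4 activators passed after Septin9 siRNA, where 6.75% of all genes passed in C2C12 cells and 4.99% in primary myoblasts.

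Of 11 regulators of proteasome genes, the protease Ddi2, which activates Nrf1, was lower after Septin9 siRNA in C2C12 cells. The share of all genes called there in either direction was 6.75%. Ddi2 stood at 38.1 and 33.2 CPM in controls and at 28.6 and 27.7 CPM in Septin9-deficient cells (-0.34 ± 0.08, adjusted p = 0.013 in edgeR). No regulator passed in primary myoblasts, against 4.99% of all genes, and the log2 fold change of Ddi2 there was -0.07 ± 0.11. Nfe2l1 itself stood between 255 and 310.0 CPM in all 8 samples, and Nfe2l2, its relative, between 115 and 173 CPM, and neither passed after Septin9 siRNA or between controls. Nfe2l2 was higher in replicate 2 than in replicate 1, by 0.22 in C2C12 cells and 0.52 in primary myoblasts on the log2 scale (adjusted p = 0.014 and 0.0017 in edgeR). Between controls Vcp, an unfoldase, was lower in C2C12 cells (-0.72 ± 0.18) and Keap1 higher (0.64 ± 0.16). Of all genes 18.3% were lower and 16.2% higher past the threshold. Of 6 genes of ubiquitin and its activation, the activating enzyme Uba1 was lower in control C2C12 cells (-0.73 ± 0.16), beside the same 18.3% of all genes. None of the 6 passed after Septin9 siRNA.

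Among 8 ubiquitin ligases of muscle, Trim63, known from atrophy and from differentiated muscle, rose after Septin9 siRNA in primary myoblasts. There 3.95% of all genes were higher and passed. Trim63 stood at 35.2 and 10.0 CPM in controls and at 53.7 and 20.7 CPM in Septin9-deficient cells, higher in both pairs (0.81 ± 0.13, adjusted p = 0.0013 in edgeR). In C2C12 cells it was at or below 0.56 CPM. Fbxo32, the other ligase known from atrophy, did not pass, with -0.29 ± 0.11 in primary myoblasts (adjusted p = 0.15) and 0.07 ± 0.07 in C2C12 cells (adjusted p = 0.62 in edgeR). Mdm2, which ubiquitinates the tumour suppressor p53, was lower in control C2C12 cells than in control primary myoblasts, by -1.51 ± 0.15.

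Of 15 genes of antigen presentation and interferon response, 8 were higher in control C2C12 cells than in control primary myoblasts, where 16.2% of all genes were higher and passed, led by Irf1 (2.14 ± 0.15), Tapbp (1.92 ± 0.15) and Stat2 (1.83 ± 0.19). The peptide transporter gene Tap1 was lower, with 1.91 CPM in both C2C12 controls and 10.3 and 8.70 CPM in primary myoblasts (-2.32 ± 0.26, adjusted p = 0.0070 in edgeR). After Septin9 siRNA 1 of the 15 rose in each cell type, where the share of all genes that were higher and passed was 2.64% for the C2C12 line and 3.95% for primary myoblasts. These were H2-D1 in C2C12 cells (0.24 ± 0.07, adjusted p = 0.037) and H2-K1 in primary myoblasts (0.57 ± 0.11, adjusted p = 0.0062 in edgeR), both heavy chains that present peptides.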

How the data were processed

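PolyA RNA of 4 C2C12 and 4 primary myoblast samples was sequenced. Per the labels and methods, STAR 2.7.2 aligned read pairs to GRCm38.p6, and the authors deposited featureCounts 2.0.1 counts per gene without normalization. They also deposited a normalized signal per cell type, which is ComBat-Seq adjusted counts divided by DESeq2 size factors; its values were whole multiples of 1 read in 100% of cases, within 0.01 reads or, above 100 reads, 0.01% of the value, and served in an alternative only. Reads of nearly identical genes and overlapping entries may be shared, as copy entries with equal counts show. The methods name a Gencode annotation, but the symbols match RefSeq. The counts hold 16 broken lines, none of a member, which were left out.

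Samples were grouped by their labels. With edgeR 4.0.16 in R 4.3.3 (filterByExpr, TMM, quasi-likelihood test, Benjamini-Hochberg adjustment over all genes tested), Septin9 siRNA was compared with control within each cell type with the replicate number as a block, since the study's methods remove the batch effect of its independent experiments. The replicate coefficient came from the same fits. The deviations from group means of same-numbered samples correlated at 0.55 in C2C12 cells and 0.79 in primary myoblasts. Controls were compared without a block over the 4 control samples, and the effects of siRNA by an interaction over all 8. Called genes had an adjusted p under 0.05, and DEGs also a 1.5-fold change. The members and lists were chosen with earlier results of these data known. Named were the catalytic subunits, called members, the 5 highest and 5 lowest members per comparison, up to 3 called genes per further list and a few set genes; Myog, Pdgfra and Ptprc, Psmd2 between replicates, and the values given for group members outside this rule were chosen after their values were seen. One called gene of a further list is not reported here.

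CPM were scaled by TMM over all 8 samples, and pair ratios by TMM within a cell type with a prior count of 2. Exon lengths are unions of GENCODE M21 exons on GRCm38, which all 35 members had. With 20898611 to 27223414 reads per sample, precision rests on 2 replicates per group. Alternatives were RLE or library-size scaling, other filters, the block, DESeq2 1.42.0, all samples in one fit and samples left out; leaving out copy entries, a crossed block and median transcript lengths were chosen after seeing the data. The siRNA, control and interaction fits were checked on simulated counts with planted 2-fold changes and the same spread for all genes. Smaller changes, the replicate coefficients and the alternatives were not simulated.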

Additional observations from a re-analysis of the deposited data

How the results depend on the processing

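With a replicate block, 6 members were called between the controls (Psmd8, Psmb5, Psmc4, Psmc5, Psmd13 and Psmd7) in place of 15, and 4326 genes in all. The numbers of the 2 cell types share no culture, and same-numbered controls deviated with a correlation of -0.132. With the numbers crossed, 16 members and 6645 genes were called. With one sample left out, 0 to 7 members and 512 to 4760 genes in all were called between the controls, in place of 15 and 5901, and the median ranged from -0.60 to -0.39, while 34 or 35 members stayed negative. These fits, like the siRNA fits within a cell type, have 1 residual degree of freedom. Scaled by library size alone, that median was -0.43, 1 member (Psmd4) and 1401 genes in all were called after siRNA in C2C12 cells, and 3 members, in place of 6, and 3664 genes in all, in place of 4187, between the replicates of primary myoblasts. With 1 pair left out, 1 to 4 members were called after siRNA in primary myoblasts, with 2020 and 1277 genes in all, where the remaining pair was assumed to vary like the other samples. The causes of these shifts were not tested. After siRNA, DESeq2 called 282 genes for C2C12 cells, in place of 1068, and 255 genes for primary myoblasts, in place of 854, and the fit with no replicate block called 0 genes in both, so it says nothing about the members.

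Of 767 values of named genes under the alternatives listed at the start, 688 kept their side of the threshold, 74 lost it, 5 gained it and 0 reversed a call. Of those lost, 49 came from leaving out a control sample and 9 from the replicate block between the controls. Values uncalled in both fits counted among the 688, also where a fit called 0 genes in all. The 688 therefore do not measure how firm the calls are. In 32 further cases, copies included, an uncalled value changed sign. With 2 replicates per group, differences under the intervals given are not detectable here.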
